A study of Mus musculus with 23 samples.

Results

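Actin remodelling proteins bind, cut, cap, branch or anchor actin filaments. The 5 described here are Tmsb4x, Gsn, Wdr1, Arpc1b and Msn, out of 8683 genes with a symbol of their own on the arrays. They were found by gene symbol, and they had been chosen by their changes between the 4 groups in an earlier analysis of the same arrays. Their levels and changes are therefore given as a description, with no p-value, and their shared direction is not evidence of anything about the family. Whether one of the 5 passed a threshold is description too. A larger change in one of them than in a relative is favoured by the same choice.

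Actin cycles between single subunits (monomers) and filaments. Thymosin beta 4, the product of Tmsb4x, holds monomers back from filaments. Gelsolin (Gsn) cuts filaments in the presence of calcium and caps the cut ends, and the protein of Wdr1 helps cofilin to take filaments apart. Arpc1b encodes a subunit of the Arp2/3 complex, which starts new filaments as branches on existing ones, and moesin (Msn) ties filaments to the cell membrane. In smooth muscle, actin filaments carry contraction, and the pool of free monomers also restrains the coactivators of SRF, a transcription factor that drives many genes of actin and its partners.

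The cells were A404, a single clone derived from P19, a mouse embryonal carcinoma line that turns towards smooth muscle in retinoic acid. Control cells (6 arrays) were undifferentiated and were taken near confluence. RA48 cells (5 arrays) and RA96 cells (6 arrays) had 1 µmol/L all-trans retinoic acid for 48 h and 96 h, begun at 30% confluence. Puromycin cells (6 arrays) were exposed to puromycin for 48 h after 96 h in retinoic acid. Whether retinoic acid went on during selection is not given in the labels. Puromycin cells were also taken 48 h later than RA96 cells, and no group without puromycin was taken at that time. In the step from RA96 to Puromycin, called the puromycin step below, drug, selection and time therefore cannot be told apart. No untreated group begun at 30% confluence and kept for 48 h or 96 h is among the labels. In the other comparisons, retinoic acid, cell density and time in culture therefore cannot be told apart either. As background, resistance to puromycin in this clone is expressed from the Acta2 promoter (Acta2 encodes alpha-actin of smooth muscle), so the drug keeps cells in which that promoter is active. Each replicate came from 5 to 6 plates. RNA from the cells (red dye) was hybridised on Agilent arrays beside RNA pooled from whole embryos of day 17.5 (green dye). A level below is a log2 ratio of cells over embryos, so 0 means the same signal as the embryo pool, and a change is a difference of such levels between groups. Because each value is a ratio for bulk RNA, more cells of 1 kind and more RNA per cell cannot be told apart.

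The 23 arrays held 17863 rows for testing, and no value was missing. The main component of the deviations from group means carried 48.9% of the variance within groups. It parted every group into an array set of 11 arrays and one of 12, unnamed in the labels. Set 1 consisted of replicates 1 to 3 of Control, RA48 and Puromycin and replicates 1 and 3 of RA96. For this reason each change is also given within each set. Of 5 measured pluripotency markers, 4 were lower in Puromycin than in Control, and of 5 measured smooth muscle markers 4 were higher (limma, adjusted p under 0.05). Zfp42, on the pluripotency list, and Myh11, the smooth muscle myosin gene, did not pass (adjusted p = 0.79 and 0.813). Markers of other lineages were also higher in Puromycin than in Control, with 2 of 4 measured endoderm markers (Gata6 by 2.44 and Sox17 by 1.24), 2 of 4 cardiac ones (Myl7 by 1.31 and Nppa by 0.67) and 1 of 4 neural ones (Nes by 0.69, while Neurog1 fell by 0.38). The part of such cells in the changes of the 5 genes was not tested.

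Each gene was read by 1 probe that carries its symbol alone, named here by gene and not by place within the transcript. In the mouse build GRCm38.p6, Tmsb4x spans chrX:167207093-167213479 and Msn chrX:96096045-96168553. Gsn lies at chr2:35256359-35307902, Arpc1b at chr5:145114256-145128186 and Wdr1 at chr5:38526806-38562922. Promoter sequence from RefSeq, of the same build, was found for all 5 genes, with 3 annotated starts for Gsn and 1 for each of the others. The 250 bases before the start are printed for the gene whose change came first (Tmsb4x), for the one whose change came last (Arpc1b) and for Wdr1, which holds a near match to the site of SRF. They are read 5′ to 3′ on the strand of the gene, at chrX:167209219-167209468 (minus strand), chr5:145114006-145114255 (plus strand) and chr5:38561700-38561949 (minus strand). The starts of Tmsb4x and Wdr1 in this table lie inside the gene spans given above. Capitals mark GC boxes (GGGCGG on either strand) and, in Wdr1, also the near match.
Tmsb4x: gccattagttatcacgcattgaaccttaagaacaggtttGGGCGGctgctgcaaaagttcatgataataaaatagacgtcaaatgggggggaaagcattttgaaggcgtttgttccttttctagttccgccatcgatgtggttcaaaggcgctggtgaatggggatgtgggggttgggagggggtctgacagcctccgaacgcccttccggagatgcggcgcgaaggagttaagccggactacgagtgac
Arpc1b: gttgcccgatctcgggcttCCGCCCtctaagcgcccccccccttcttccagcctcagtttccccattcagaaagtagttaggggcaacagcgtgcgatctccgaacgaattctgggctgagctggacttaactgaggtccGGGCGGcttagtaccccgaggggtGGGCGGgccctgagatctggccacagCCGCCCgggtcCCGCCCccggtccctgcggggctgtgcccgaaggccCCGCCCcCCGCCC
Wdr1: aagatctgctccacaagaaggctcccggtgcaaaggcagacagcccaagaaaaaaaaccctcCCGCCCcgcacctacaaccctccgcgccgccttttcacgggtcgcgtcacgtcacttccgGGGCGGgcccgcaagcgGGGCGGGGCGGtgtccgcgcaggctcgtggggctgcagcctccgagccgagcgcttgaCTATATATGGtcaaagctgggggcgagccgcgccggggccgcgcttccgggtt

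The Arpc1b window held 7 GC boxes, the Wdr1 window 4 (of which 2 share a base), the Msn window 3, the Tmsb4x window 1 and the Gsn windows 2, 1 and 1. A GC box stood in 32.7% of 32851 such windows of mouse genes, and windows had a median GC content of 52.4%, against 68.4% for Arpc1b, 71.6% for Msn, 68% for Wdr1, 52% for Tmsb4x and 60.8%, 56% and 57.6% for Gsn. The full site of SRF, called the CArG box, stood in none of the 7 windows of the 5 genes and in 1.47% of all windows. In Wdr1 a match with 1 of its outer bases changed lay from -53 to -44, counted from -1 as the base before the start, and 11.1% of all windows held such a near match. No window of the 5 genes held the TATA element TATAAA (12.4% of all windows), the TEAD site GGAATG (12.6%) or a paired retinoic acid element of the DR5 type (0.0883%). Both strands were searched. These are matches of letters within 250 bases and say nothing about binding.

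All 5 genes were higher in Puromycin than in Control, by 1.58 to 3.43 on the log2 scale, and no Puromycin array fell among the Control arrays for any of them. They differed in when the change came. Tmsb4x and Wdr1 made most of it in the first 48 h of retinoic acid, Msn took its largest step from 48 h to 96 h, Arpc1b took its largest step with puromycin, and Gsn moved at both ends of the protocol. Puromycin versus Control was called higher for 5 of the 5 (limma, adjusted p under 0.05, over all rows), where 19.8% of all rows were called higher and 26.4% lower. Every array of the first group lay above every array of the second for the 5 genes and for 13.8% of all rows. Nothing is read from these counts, since the genes were chosen on these changes.

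**Figure D1:**
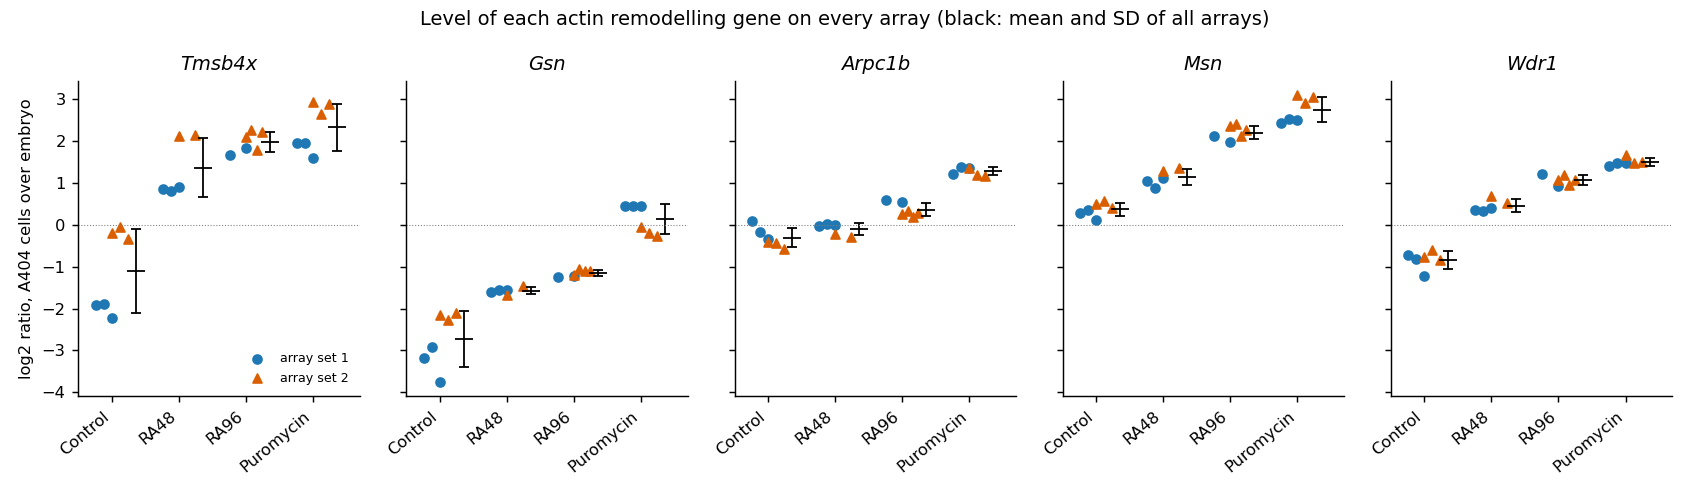
Log2 ratio of A404 cells over the embryo pool (vertical axis) on each array of Control, RA48, RA96 and Puromycin, 1 panel per gene; circles are array set 1, triangles array set 2, and black bars are mean and SD. Tmsb4x climbs mainly between Control and RA48, Arpc1b only after RA48, and the sets lie farthest apart for Tmsb4x in Control.

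Tmsb4x, the monomer-binding gene, had the largest change over the whole protocol. In Control its level ran from -2.23 through a median of -1.11 to -0.06. The RA48 arrays gave 0.85, 0.81, 0.90, 2.11 and 2.15. RA96 arrays lay between 1.67 and 2.26 (median 1.96) and Puromycin arrays between 1.60 and 2.93 (median 2.30). Every RA48 array was thus above every Control array, while RA48 overlapped RA96 and RA96 overlapped Puromycin. The means were -1.11 ± 1.01 (SD, n = 6), 1.36 ± 0.70 (n = 5), 1.98 ± 0.25 (n = 6) and 2.32 ± 0.56 (n = 6). RA48 exceeded Control by 2.47 ± 0.39 (SE), a 5.54-fold change and 72% of the 10.8-fold change over the protocol. Further changes were 0.61 ± 0.39 from RA48 to RA96 and 0.35 ± 0.37 from RA96 to Puromycin, neither of which was called. The wide SDs follow the array sets: the second set was higher by 1.82 in Control, 1.28 in RA48, 0.34 in RA96 and 0.98 in Puromycin. Within the first and second set the first step was 2.87 and 2.33. The step from RA48 to RA96 was 0.90 in the first set and -0.04 in the second, so that its direction was not shared, and the puromycin step was 0.08 and 0.73.

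Tmsb10 encodes thymosin beta 10, a close relative that also binds monomers, and it took a like course with a smaller first step. It rose by 1.35 ± 0.30 in RA48 versus Control (limma, adjusted p = 0.00128) and did not pass in the next steps (0.40, adjusted p = 0.374, and 0.36, adjusted p = 0.593). With the array set as a block its puromycin step passed (adjusted p = 0.00976). Over the whole protocol its change was 2.11 ± 0.28 (adjusted p = 2.29e-06). Taken array by array, the first step of Tmsb4x exceeded that of Tmsb10 by 1.12 ± 0.14 (SE from the group SDs). The per-array difference between the 2 log2 ratios ran from -1.28 to -0.55 in Control and from 0.17 to 0.41 in RA48, with no overlap. Such a gap is favoured, since Tmsb4x was chosen by its changes. From RA96 to Puromycin the changes of the pair differed by -0.01 ± 0.16.

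Gsn, the severing and capping gene, stood well below the embryo pool in Control and near it in the Puromycin cells. Its Control arrays ran from -3.75 to -2.10 with a median of -2.60. RA48 arrays gave -1.60, -1.55, -1.56, -1.69 and -1.47, and RA96 arrays lay between -1.24 and -1.05 (median -1.16). Puromycin arrays spread from -0.27 to 0.46 (median 0.19). No neighbouring groups overlapped, and the gap between the nearest arrays was 0.41, 0.22 and 0.78 at the 3 steps. Mean levels were -2.73 ± 0.66 (SD, n = 6), -1.57 ± 0.08 (n = 5), -1.15 ± 0.08 (n = 6) and 0.14 ± 0.35 (n = 6).

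For Gsn the first step was 1.16 ± 0.23 (2.23-fold) and the puromycin step 1.29 ± 0.22 (2.45-fold), 40.4% and 45.1% of a whole change of 7.32-fold. Between them, RA96 exceeded RA48 by 0.42 ± 0.23, which was not called although the arrays did not overlap. The size of both larger steps depended on the array set. In the first and second set the first step was 1.71 and 0.60, and the puromycin step 1.68 and 0.94. The sets differed in opposite ways at the 2 ends: in Control the second set was higher by 1.10, and in Puromycin the first was higher by 0.63. The gelsolin family has further members, of which 4 were measured here. Scin (scinderin) changed by -0.28 ± 0.17 (adjusted p = 0.186) and Capg, a capping protein gene, by -0.17 ± 0.08 (adjusted p = 0.0748) between Control and Puromycin. With the array set as a block Capg passed (adjusted p = 0.0463). Flii (flightless) rose by 0.39 ± 0.09 in RA48 versus Control (adjusted p = 0.00257) and by 0.36 ± 0.09 over the protocol (adjusted p = 0.00216; 0.51 and 0.20 within the sets). Svil (supervillin) rose by 0.54 ± 0.10 in RA48 versus Control (adjusted p = 0.0003), fell by 0.49 ± 0.10 from RA48 to RA96 (adjusted p = 0.0019) and over the protocol changed by 0.04 ± 0.10 (adjusted p = 0.786). The whole change of Gsn exceeded that of Scin by 3.16 ± 0.26 and that of Capg by 3.04 ± 0.34. The choice of Gsn by its changes favours such an excess. Vil1 and Avil, further members of the family, had no probe of their own here. All values of Gsn above are of the 1 probe annotated to it alone. Another probe, annotated to both Gsn and Mthfd2, went the other way. It changed by -0.86 in RA48 versus Control and by -1.17 in Puromycin versus Control, and is described under the other observations.

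Wdr1, the cofilin cofactor, was higher at every step, and its array sets lay within 0.24 of each other in every group. Control levels ran from -1.23 to -0.60 (median -0.80). The RA48 arrays gave 0.35, 0.33, 0.41, 0.68 and 0.52. RA96 arrays lay between 0.91 and 1.21 (median 1.06), and Puromycin arrays between 1.40 and 1.67 (median 1.47). Neighbouring groups did not overlap at any step. Group means were -0.83 ± 0.21 (SD, n = 6), 0.46 ± 0.15 (n = 5), 1.06 ± 0.12 (n = 6) and 1.496 ± 0.09 (n = 6). The steps were 1.29 ± 0.10, 0.61 ± 0.10 and 0.43 ± 0.09, or 55.4%, 26.1% and 18.6% of a 5.03-fold change. Within the first and second set they were 1.29 and 1.34, then 0.70 and 0.46, then 0.38 and 0.48. Among its partners, Cfl2 (muscle cofilin) rose by 1.72 ± 0.10 in RA48 versus Control (adjusted p = 7.81e-12) and Dstn (destrin) by 1.05 ± 0.17 (adjusted p = 5.55e-05). Cfl1, the cofilin gene of most cells, changed by 0.10 ± 0.19 (adjusted p = 0.772). Over the protocol Cfl2 rose by 2.10 ± 0.09 (limma, adjusted p = 3.58e-14) and Dstn by 1.94 ± 0.16 (adjusted p = 1.72e-09). Cfl1 changed by 0.30 ± 0.18 (adjusted p = 0.188), with 0.50 and 0.11 within the first and second set. With the array set as a block this change of Cfl1 passed (adjusted p = 0.006).

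Arpc1b, the Arp2/3 subunit gene, changed little in the first 48 h and most with puromycin. Control levels ran from -0.58 to 0.09 (median -0.37) and overlapped the RA48 arrays at -0.02, 0.01, -0.01, -0.23 and -0.30. RA96 arrays lay between 0.19 and 0.58 (median 0.30), and Puromycin arrays between 1.18 and 1.37 (median 1.29). From RA48 on, the groups did not overlap. Mean levels were -0.31 ± 0.23 (SD, n = 6), -0.11 ± 0.15 (n = 5), 0.36 ± 0.16 (n = 6) and 1.28 ± 0.10 (n = 6). Its steps were 0.20 ± 0.11, which was not called, then 0.47 ± 0.11 and 0.91 ± 0.10. The last made up 57.8% of a 3-fold change over the protocol and was 0.75 and 0.98 within the first and second set.

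Arpc1a encodes the alternative form of the same Arp2/3 subunit and moved at another time. It rose by 0.89 ± 0.13 in RA48 versus Control (adjusted p = 8.85e-06) and did not pass afterwards (-0.29, adjusted p = 0.107, and -0.06, adjusted p = 0.87). With the array set as a block its second step passed (adjusted p = 0.0135; -0.40 and -0.30 within the sets). Array by array, Arpc1b changed by 0.69 ± 0.17 less than Arpc1a in the first step, by 0.76 ± 0.17 more in the second and by 0.98 ± 0.16 more in the third. The per-array difference, Arpc1b minus Arpc1a, was -1.19 to -0.68 in RA48, -0.47 to 0.34 in RA96 and 0.62 to 1.06 in Puromycin. These ranges do not overlap. In Control the difference ran from -0.50 to 0.33.

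Msn, the membrane linker, was already above the embryo pool in undifferentiated cells and took 3 clear steps. Control levels ran from 0.12 to 0.58 (median 0.37). The RA48 arrays gave 1.04, 0.88, 1.11, 1.28 and 1.36. RA96 arrays lay between 1.97 and 2.40 (median 2.19) and Puromycin arrays between 2.44 and 3.09 (median 2.72). No neighbouring groups overlapped, though the lowest Puromycin array stood only 0.04 above the highest RA96 array. Means were 0.37 ± 0.16 (SD, n = 6), 1.13 ± 0.19 (n = 5), 2.20 ± 0.17 (n = 6) and 2.75 ± 0.30 (n = 6). The steps were 0.77 ± 0.13, 1.07 ± 0.13 and 0.55 ± 0.12, or 32.1%, 44.8% and 23.1% of a 5.22-fold change. Within the first and second set they were 0.76 and 0.83, then 1.03 and 0.96, then 0.45 and 0.74.

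Rdx (radixin), a sister of moesin in the ERM family, changed by -0.02 ± 0.21 between Control and Puromycin (adjusted p = 0.955). With the array set as a block it passed in RA48 versus Control (adjusted p = 0.003) and, downwards, in Puromycin versus RA96 (adjusted p = 0.0386). The third member, Ezr, had no probe of its own here. Over the protocol the change of Msn exceeded that of Rdx by 2.40 ± 0.14. The per-array difference ran from -0.13 to 0.53 in Control and from 2.38 to 2.81 in Puromycin. Msn was chosen by its changes and Rdx was not, which favours this excess. Cd44, a hyaluronan receptor that ERM proteins bind, rose at every step, by 1.25 ± 0.13 (adjusted p = 1.73e-07), 0.96 ± 0.13 (adjusted p = 3e-05) and 0.61 ± 0.13 (adjusted p = 0.00492). Endothelial and blood cells are rich in moesin. Of the 5 listed endothelial markers 3 were measured, and all 3 (Pecam1, Cdh5 and Kdr) were higher in Puromycin than in Control, by 0.70 to 0.89, with mean levels below the embryo pool in every group (-2.81 to -0.64). None of the 3 passed in Puromycin versus RA96, where Pecam1 changed by -0.42 (adjusted p = 0.174). Of the 8 blood and macrophage markers 2 were measured, and over the protocol Ptprc changed by 0.30 (adjusted p = 0.229) and Lyz2 by -0.08 (adjusted p = 0.812). The part of these cells in the levels of Msn was not tested.

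**Figure D2:**
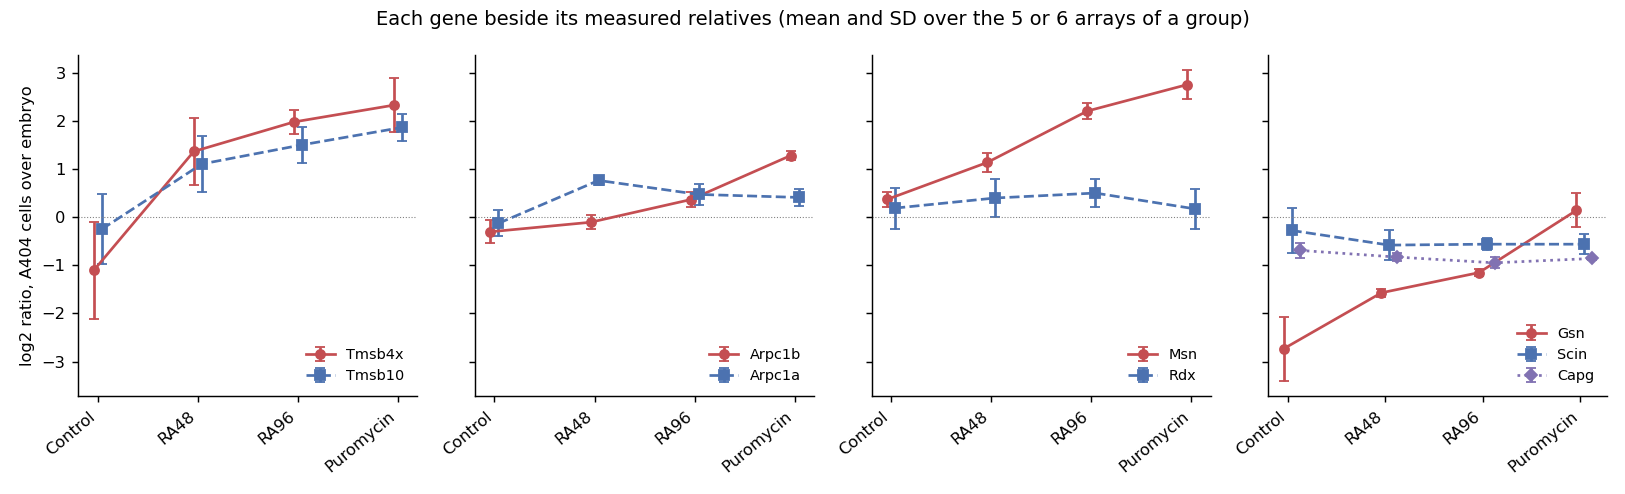
Mean log2 ratio of cells over embryos with SD (vertical axis) in the 4 groups for each gene and its measured relatives. Msn and Gsn climb while Rdx, Scin and Capg end at -0.02, -0.28 and -0.17 from their Control means, and Arpc1a steps up at RA48 while Arpc1b climbs later.

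**Figure D3:**
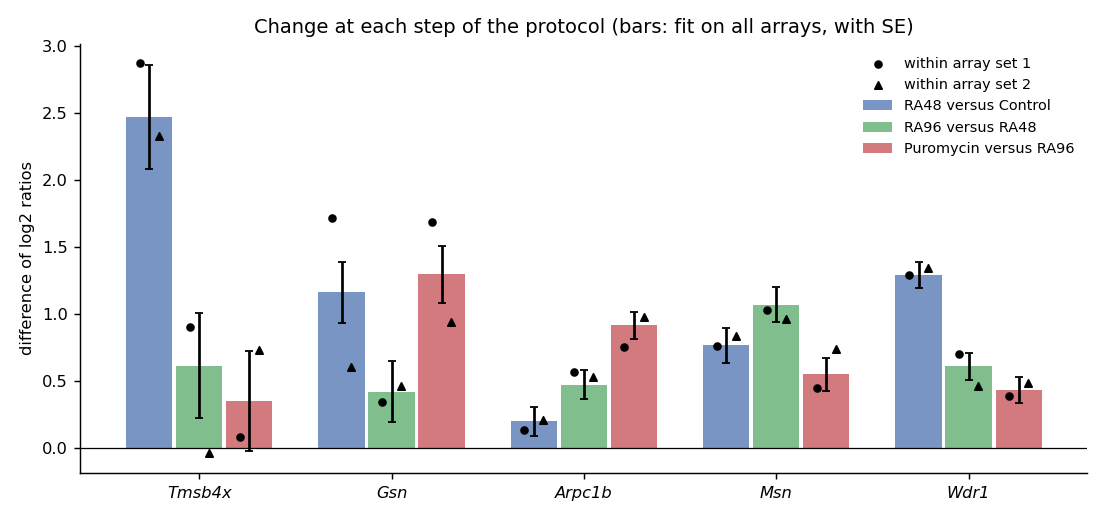
Difference of log2 ratios (vertical axis) at each of the 3 steps for the 5 genes; bars are the fit on all arrays with SE, circles and triangles the values within array set 1 and 2. The first bar is the tallest for Tmsb4x and Wdr1, the second for Msn and the third for Arpc1b and Gsn.

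Step by step, the share of the 5 genes called higher stood beside these shares of all rows. In RA48 versus Control 4 of 5 were called higher, against 11.9% of all rows (14.1% were called lower), and 4 lay wholly above Control, against 9.35%. In RA96 versus RA48 3 of 5 were called higher, against 10.4% (9.42% lower), and 4 lay wholly above, against 4.81%. In Puromycin versus RA96 4 of 5 were called higher, against 3.17% (2.10% lower), and 4 lay wholly above, against 2.84%. The steps share groups, so their changes are not independent of each other. When arrays of 1 group and set were treated as repeats of each other (a random block), 4, 1 and 0 of the 5 were called at the 3 steps and 5 over the whole protocol. Nothing is read from any of these counts, since the 5 genes were chosen on these changes.

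The other genes of actin remodelling came from 10 lists of 145 genes written from general knowledge, of which 95 were measured. The lists were written with earlier results of these data known, so their counts are not independent support and are given as a description. All rows below means the 17863 tested, of which 8683 are genes with a symbol of their own. In RA48 versus Control 38 of the 95 rose (40%, against 11.9% of all rows) and 5 fell (5.26%, against 14.1%). The median change of the 95 was 0.27, against -0.06 over all rows. With the array set as a block 50 rose and 12 fell, and with the random block 22 rose and 1 fell. Of 11 crosslinkers and bundlers 7 rose, with Actn1 (alpha-actinin, 1.62 ± 0.14, adjusted p = 1e-08), Tagln2 (transgelin 2, 1.62 ± 0.14, adjusted p = 4.51e-09) and Dbn1 (drebrin, 1.49 ± 0.19, adjusted p = 1.87e-06). In the list of severing and depolymerising proteins 7 of 13 rose, led by Cfl2, Coro2a (a coronin, 1.09 ± 0.16, adjusted p = 1.22e-05) and Dstn, and Gmfb fell by 0.36 ± 0.10 (adjusted p = 0.00958). Within the Arp2/3 complex 2 of 5 rose, Arpc5 by 1.09 ± 0.11 (adjusted p = 6.89e-08) and Arpc1a. Arpc2 of the same complex changed by -0.56 ± 0.22 and did not pass (limma, adjusted p = 0.0682). With the array set as a block Arpc2 passed, downwards (adjusted p = 6.82e-05; -0.411 and -0.565 within the sets). The largest riser of the membrane linkers, with 5 of 13 higher, was Anxa2 (annexin A2, 2.55 ± 0.15, adjusted p = 1.95e-11).

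In that first step filament capping genes split: Add1 (adducin 1) rose by 1.38 ± 0.11 (adjusted p = 1.2e-09) and Eps8, a capping and bundling protein gene, fell by 0.82 ± 0.11 (adjusted p = 2.86e-06), with 2 of 7 higher and 1 lower. Arp2/3 activators had 3 of 8 higher, among them Wipf1, a partner of WASP proteins (1.06 ± 0.17, adjusted p = 5.73e-05), and Cttn (cortactin, 0.94 ± 0.11, adjusted p = 7.34e-07), and 1 lower, Abi2 (-0.40 ± 0.15, adjusted p = 0.0474). Of 13 formins and related nucleators 2 rose, Evl (0.83 ± 0.24, adjusted p = 0.012) and Inf2 (0.44 ± 0.15, adjusted p = 0.0335). Besides Tmsb10, the list of monomer-binding genes held Mical1, an actin-oxidising enzyme gene, which fell by 0.37 ± 0.12 (adjusted p = 0.028). Of 4 actin isoforms 1 was called, Acta2 (4.56 ± 0.22, adjusted p = 4.24e-13), and 3 were with the array set as a block. Actg1, which encodes a cytoplasmic actin, changed by -0.01 ± 0.12 (adjusted p = 0.971).

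From RA48 to RA96, 22 of the 95 rose (23.2%, against 10.4% of all rows) and 7 fell (7.37%, against 9.42%). The median change was 0.06, against -0.02. The random block left 10 higher and 1 lower, the set block gave 28 and 13, and array weights gave 46 and 17. Crosslinkers gave 5 of 11 higher, with Flnc (filamin C, 0.96 ± 0.11, adjusted p = 2.05e-06), Lima1 (0.85 ± 0.09, adjusted p = 8.41e-07) and Actn1 (0.85 ± 0.14, adjusted p = 0.000284). Membrane linkers gave 4 of 13 higher, again with Anxa2 (1.36 ± 0.15, adjusted p = 1.95e-06) and Cd44, and Sptbn1 (a spectrin, 0.67 ± 0.13, adjusted p = 0.000986). Coro2a, a riser of the first step, fell by 1.45 ± 0.16 (adjusted p = 1.17e-06), and Eps8 turned the other way and rose by 0.87 ± 0.11 (adjusted p = 5.9e-06). Enah, an elongation factor of filaments, rose by 0.71 ± 0.09 (adjusted p = 5.95e-06), and the formin gene Fmnl2 fell by 0.86 ± 0.16 (adjusted p = 0.00055). In the Arp2/3 complex Actr3, an actin-like subunit gene, rose by 0.49 ± 0.16 (adjusted p = 0.0299). Its values in the 2 sets were 0.52 and 0.26.

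In the puromycin step 6 of the 95 rose (6.32%, against 3.17% of all rows) and 1 fell (1.05%, against 2.10%). The median change was 0.06, against -0.01. Among the risers were Anxa2 (1.21 ± 0.15, adjusted p = 2.37e-05), Cd44, Eps8 (0.53 ± 0.10, adjusted p = 0.00259), Actr3 (0.53 ± 0.15, adjusted p = 0.0398) and Mical2 (0.28 ± 0.07, adjusted p = 0.0297). Add3 fell by 0.44 ± 0.12 (adjusted p = 0.0287). The 7 called genes came from 5 of the 10 lists. The count was sensitive to the arrays used. With the array set as a block 18 rose and 4 fell, and without RA96 replicate 5, RA96 replicate 6 or Puromycin replicate 2, the total was 4 in each case. With the random block it was 0, where 7 had an unadjusted p under 0.05.

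Over the whole protocol 52 of the 95 rose (54.7%, against 19.8% of all rows) and 11 fell (11.6%, against 26.4%). The median change was 0.49, against -0.09. With the random block 36 rose and 2 fell. Anxa2 rose by 5.11 ± 0.15 (adjusted p = 1.73e-17), Cd44 by 2.81 ± 0.13 (adjusted p = 4.74e-14) and Actn1 by 2.51 ± 0.14 (adjusted p = 1.17e-12). Arp2/3 subunit genes gave 3 of 5 higher, with Arpc5 at 1.32 ± 0.10 (adjusted p = 5.79e-10), Actr3 at 1.21 ± 0.15 (adjusted p = 6.85e-07) and Arpc1a at 0.54 ± 0.12 (adjusted p = 0.000857). Arpc2 (0.04, adjusted p = 0.895) and Arpc4 (-0.05, adjusted p = 0.701) of the same complex did not pass. Genes that fell included Pls1 (plastin 1, -0.91 ± 0.26, adjusted p = 0.00608), Nckap1l, a subunit gene of the WAVE complex in blood cells (-0.73 ± 0.13, adjusted p = 0.000116), and Ank3 (ankyrin 3, -0.72 ± 0.07, adjusted p = 2.05e-08). Fmn2, a formin gene, rose by 1.09 ± 0.32 (adjusted p = 0.00742), with 1.88 in the first set and 0.31 in the second. The called genes of the 4 comparisons (43, 29, 7 and 63) each had 1 direction in both sets, which is favoured because they were called on the arrays of both.

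**Figure D4:**
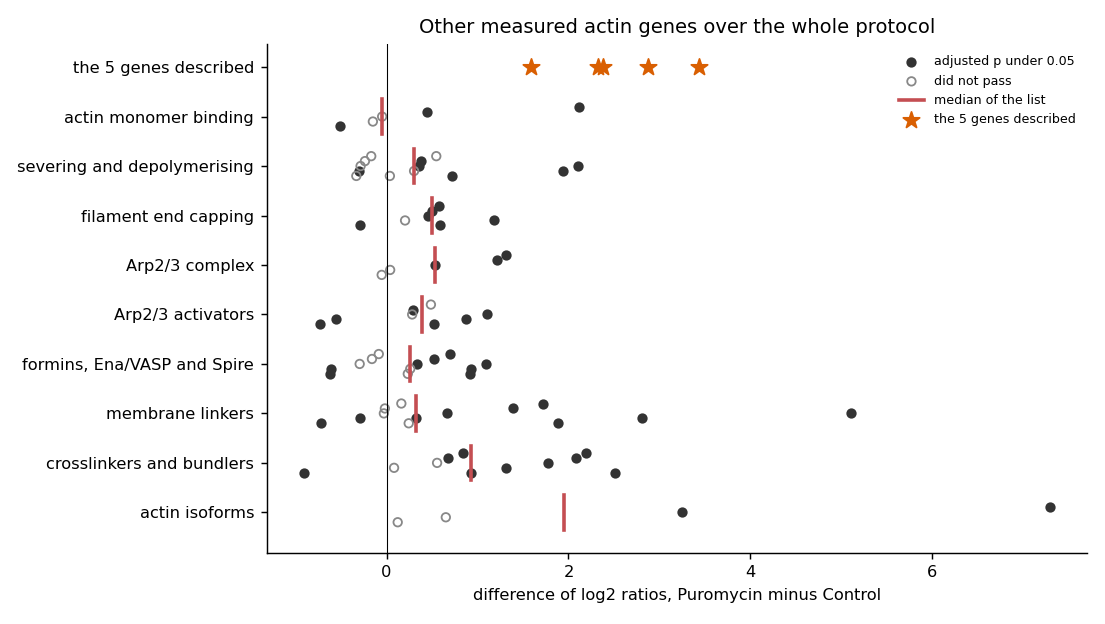
Difference of log2 ratios between Puromycin and Control (horizontal axis) for other measured actin genes, by list (signalling genes not drawn), with the list medians, and for the 5 genes described. Filled points passed an adjusted p under 0.05, and most of them lie to the right of 0.

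Across the 23 arrays Pearson r between pairs of the 5 genes ran from 0.74 (Tmsb4x and Arpc1b) to 0.97 (Msn and Wdr1) once the shift between array sets was subtracted. As deposited the same pairs gave 0.61 and 0.96. A high r is favoured, since the genes were chosen by their changes between these groups. The r values describe 4 groups on arrays that share 1 reference pool, and the pair with the lowest r is the one with the earliest and the latest change. Among the other 8682 genes, the profile nearest to Tmsb4x was that of Tax1bp3, a PDZ domain gene (r = 0.990), then Rbms1, an RNA-binding protein gene (0.988), and Tmem43, a gene of the nuclear envelope (0.987). Several of these places rest on the subtraction. On the values as deposited Tax1bp3 ranked 158 for Tmsb4x (r = 0.912), Rbms1 33 (0.952) and Tmem43 919 (0.750). Gsn came nearest to Pip4k2a, a lipid kinase gene (0.973), Kdelr3, a retrieval receptor of the secretory pathway (0.971), and Rtn4, a reticulon gene (0.970), which ranked 24, 1 and 3 as deposited (0.936, 0.971 and 0.965). Wdr1 lay nearest to Furin, a protease gene of the secretory pathway (0.995), Anxa5 (0.992) and Anxa2 (0.992). As deposited Furin ranked 117 (0.954), and Anxa2 and Anxa5 ranked 1 and 2. For Arpc1b the nearest were Fat1, a giant cadherin gene (0.985), Lmna, which encodes lamins A and C (0.982), and Ccn4, a matricellular protein gene (0.981), which ranked 16, 81 and 18 as deposited (0.941, 0.897 and 0.939). Msn was nearest to Arid5b, a DNA-binding protein gene (0.992), Slc39a6, a zinc transporter gene (0.992), and Klhl22 (0.987), which ranked 8, 1 and 233 as deposited (0.977, 0.986 and 0.909). Lmna, for instance, changed by 0.43, 0.87 and 1.08 over the 3 steps, beside 0.20, 0.47 and 0.91 for Arpc1b.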

How the data were processed

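RNA from A404 cells (Cy5) and from a pool of whole embryos (Cy3) was hybridised without a dye swap, per the labels. The scanner was Agilent's G2565AA and the software Feature Extraction, per the labels' descriptions. The deposited table holds 1 value per probe and array, read as the log10 ratio of Cy5 over Cy3. Its base, centring and direction are not stated, so folds rest on reading base 10 from the range of values, and p-values do not. Values were divided by log10 of 2 (0.301) and not normalized further. The number of arrays limits precision.

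Of 21446 rows, 1166 with no gene and at most 6 significant digits on every array (probable control spots) were left out. Probes with 1 symbol were averaged per gene (the 5 genes have 1 each), and the others kept as single rows. A second probe annotated to both Gsn and Mthfd2 was not assigned. Of the gene identifiers of probes, 37 had no entry in the RefSeq gene table, and symbols stayed as annotated. Group means of all 23 arrays were fitted with limma 3.58.1 (R 4.3.3, statmod 1.5.0), and p-values adjusted by Benjamini-Hochberg over 17863 rows for each comparison. A row is called at an adjusted p under 0.05. The fit was tested on simulated data with known changes, but no result of that test is given here and nothing above rests on it. Whether replicates were grown separately is not stated: p-values rest on the spread between arrays, which may be technical.

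The 5 genes and the lists were chosen with earlier results of these data known. Named besides them are up to 3 called genes in each direction per list and comparison, their paralogs, and the 3 genes most correlated with each, after subtraction of the array set; the text gives part of these. The signalling list counts in the totals and is otherwise not reported here. Array sets were the sign of the first principal component of deviations from group means, computed without the actin genes, and p-values with the set as a block are optimistic, as they come from the same residuals. Deviations of arrays with the same replicate number correlated by 0.37 to 0.52 in RA48 versus Control and 0.30 to 0.49 in Puromycin versus Control. In these comparisons arrays with the same number also share an array set, and arrays of 1 set with different numbers were not compared. The correlations therefore cannot show whether the numbers pair the arrays. In the other comparisons replicate 2, whose arrays come from different sets, gave -0.46 and -0.38. The numbers are not taken as pairs in any comparison. Sequences were matched with Python 3.11.15, and figures drawn with matplotlib 3.10.9.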

Additional observations from a re-analysis of the deposited data

Results flagged for a closer look

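Wdr1 in Puromycin replicate 4 stood at 1.67 (1.668), apart from the other 5 arrays of its group, which lay between 1.40 and 1.49. Its gap to the next array took up 0.646 of the range of the group. Of the 5 genes in 4 groups (20 in all) no other array stood apart in this way, and chance gives about 1 in 20. Without that array the change of Wdr1 from RA96 to Puromycin was 0.40.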

How the results depend on the processing

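Of 450 recomputed changes of the 5 genes, 9 moved by more than the SD between arrays and 0 of the called ones changed sign. The 9 were all values within 1 array set. For Gsn they were 1.714 and 0.604 (RA48 versus Control), 1.684 and 0.942 (Puromycin versus RA96) and 3.737 and 2.006 (Puromycin versus Control), in the first and second set. In the second set RA96 versus RA48 gave -0.042 for Tmsb4x and 0.464 for Wdr1, and in the first Puromycin versus RA96 gave 0.753 for Arpc1b. Median centring, quantile normalization, single probes, only the groups compared, array weights, a trended and robust variance and control-like rows kept moved none that far.

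The count of other actin genes called (43, 29, 7 and 63 in order of the comparisons) moved by over 1.5 times in 15 of 98 recomputations. With group and array set as a random block it was 23, 11, 0 and 38. In RA96 versus RA48 it was 44 within the first set and 63 with array weights, whose estimation stopped short of convergence. In Puromycin versus RA96 it was 22 under a set block, 14 and 15 in the single sets, 16 with array weights and 4 at an adjusted p under 0.01. Leaving out 1 array at a time gave 4 to 7 there. The replicate block gave 57 in RA48 versus Control and 70 in Puromycin versus Control, and it ended no call of an actin gene. In these comparisons each replicate number lies within 1 array set, so the block also takes up the shift between sets. Whether the numbers pair the arrays is not known. In the other comparisons the replicate block gave 36 and 11. Without subtraction of the array set, r of Tax1bp3 with Tmsb4x was 0.912 in place of 0.990. The causes were not tested. Signal over background is unknown here, so a compressed ratio of a dim probe would not be seen.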

Other observations

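A second probe, annotated to both Gsn and Mthfd2 (a mitochondrial folate enzyme gene), did not follow the probe of Gsn alone. Its mean level was 2.31 in Control, 1.45 in RA48, 1.25 in RA96 and 1.13 in Puromycin. It fell by 0.86 ± 0.11 in RA48 versus Control (limma, adjusted p = 2.16e-06) and by 1.17 ± 0.10 in Puromycin versus Control (adjusted p = 3.92e-09). Over the 23 arrays its Pearson r with the Gsn probe was -0.83. The sources used here do not say which of both transcripts the probe reads.

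The gap between the array sets was not of 1 size or direction among the 5 genes. In Control the second set was higher by 1.82 for Tmsb4x and 1.10 for Gsn, and lower by 0.33 for Arpc1b. In Puromycin it was higher by 0.98 for Tmsb4x and 0.54 for Msn, while for Gsn the first set was the higher one by 0.63. For Wdr1 the sets were within 0.24 of each other in every group. What sets these arrays apart was not tested.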
